A study of Homo sapiens with 8 samples.

Results

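The 10 genes described here, AXIN2, LGR5, DKK1, NKD1, RNF43, ZNRF3, SP5, NOTUM, TCF7 and LEF1, are established transcriptional targets of WNT signalling and were taken by symbol from a table of 58302 genes. All 10 symbols were found, each on a single line of the table. The cells were HCT116 p53+/+, an established human colon cancer line with wild-type p53, and 4 samples received 1 µM MANIO, a compound known here only by that name, while 4 received its solvent DMSO. RNA was collected 24 hours after treatment, and the design text calls the samples of a group biological replicates. The comparison was made by the study to see whether the compound engages the p53 response in transcripts, and the WNT target genes are read from the same libraries.

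WNT ligands bind Frizzled and LRP receptors and so stop a destruction complex of APC, AXIN and kinases from marking β-catenin for degradation. Stabilised β-catenin then joins TCF and LEF factors on DNA and switches on target genes, many of which encode brakes on the pathway itself. In the intestine this programme maintains the crypt stem cells, and it is switched on without ligand in most colorectal cancers. HCT116 cells are known to carry an activating β-catenin mutation with intact APC, which is background knowledge, since the labels do not state it and the counts do not separate alleles.

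Promoter sequences (250 bases before to 50 after the annotated start) were found in RefSeq (GRCh38.p14) for 5 of the 10 genes: DKK1, SP5, RNF43, TCF7 and LEF1. They were searched on both strands for CTTTGA, one form of the core letters bound by TCF and LEF factors. Other forms, such as CTTTGT, were not searched, and the windows of DKK1, SP5 and RNF43 below all hold CTTTGT. Of 35116 promoters in the table, 4536 (12.9%) hold CTTTGA. No promoter was found for AXIN2, NOTUM, NKD1, ZNRF3 and LGR5, so the genes that fell, AXIN2 and NOTUM, are absent from this search. The promoters of DKK1 and SP5 are shown because these were the genes that rose, and that of RNF43 because it was well expressed and did not pass the test. Capitals mark CTTTGA on either strand, with TCAAAG standing for a match on the opposite strand, and each sequence is written 5′ to 3′ along its gene.
DKK1: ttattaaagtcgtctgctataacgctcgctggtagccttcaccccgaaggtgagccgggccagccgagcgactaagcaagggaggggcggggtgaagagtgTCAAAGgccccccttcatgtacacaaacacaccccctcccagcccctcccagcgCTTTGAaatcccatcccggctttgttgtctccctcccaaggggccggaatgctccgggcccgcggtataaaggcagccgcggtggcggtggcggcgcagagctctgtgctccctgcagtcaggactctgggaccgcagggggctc
SP5: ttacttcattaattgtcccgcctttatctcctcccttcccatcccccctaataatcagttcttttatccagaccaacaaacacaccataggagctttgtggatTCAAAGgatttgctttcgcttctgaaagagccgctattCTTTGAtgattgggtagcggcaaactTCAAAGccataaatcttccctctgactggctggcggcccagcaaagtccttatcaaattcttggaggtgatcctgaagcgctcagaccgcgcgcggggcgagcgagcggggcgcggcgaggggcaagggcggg
RNF43: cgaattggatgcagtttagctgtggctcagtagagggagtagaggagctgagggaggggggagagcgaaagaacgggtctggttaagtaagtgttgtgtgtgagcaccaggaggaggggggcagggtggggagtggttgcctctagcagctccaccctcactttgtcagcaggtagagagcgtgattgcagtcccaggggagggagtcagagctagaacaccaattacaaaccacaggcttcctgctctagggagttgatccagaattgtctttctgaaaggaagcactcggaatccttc
The DKK1 window lies at chr10:52314031-52314330 on the plus strand and holds 2 matches, which begin 149 and 95 bases before the start. The SP5 window, at chr2:170715087-170715386 on the plus strand, holds 3 matches, beginning 147, 109 and 83 bases before the start. RNF43, at chr17:58417485-58417784 on the minus strand, holds 0 in the window shown and 0 in the window of its second start. The windows of LEF1 and of the 2 starts of TCF7 also hold 0. Half-sites of the p53 motif, present in 6.63% of all promoters, were not matched in any window of these 5 genes. Most promoters hold none, and bases outside the windows were not searched. A match describes letters in this window only, and binding was not measured.

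Libraries held 27.9 to 32.5 M counts. DMSO replicate 1 stood apart in its share of mitochondrially encoded counts, 7.48% against 4.82% to 5.21% in the other DMSO libraries. The MANIO libraries had 6.70% to 7.62%, all above DMSO replicates 2 to 4 and overlapping DMSO replicate 1, and the part of this share in the results was not tested. Without DMSO replicate 1 the calls were 2 WNT target genes higher and 2 lower (log2 fold changes without it: DKK1 0.82, SP5 0.54, AXIN2 -0.27, NOTUM -0.23). Over all genes the calls without it were 4236 higher and 4095 lower. With every library kept, 4366 of 15712 tested genes (27.8%) were called higher and 4208 (26.8%) lower. The refit without DMSO replicate 1 cannot separate the share from the treatment, since without this library the shares of the groups do not overlap. Of 10 colon epithelial markers, VIL1, LGALS4 and CDX1 stayed under 1 CPM in all libraries. The summed level of the 10 was 3351 to 3623 CPM in DMSO and 4137 to 4638 CPM in MANIO. KRT8 (mean 1618 CPM in DMSO and 2103 CPM in MANIO), KRT18 (725 and 938 CPM) and KRT19 (721 and 981 CPM) made up most of both. CDH1 and CDX2 rose too, while EPCAM (mean 293 and 280 CPM) and KRT20 (1.57 and 1.54 CPM) did not rise. CPM are counts per 1e6, with library sizes scaled by TMM, the trimmed mean method of edgeR. The summed level of 4 goblet and enteroendocrine markers was 0.0744 to 0.391 CPM in DMSO and 1.45 to 2.59 CPM in MANIO, TFF3 was at 0, and MUC2 made up most of it (mean 0.156 CPM in DMSO and 1.76 CPM in MANIO). For 6 fibroblast markers the sums were 21.6 to 26.5 and 39.5 to 47.7 CPM, LUM was at 0, and COL1A1 made up most of both (mean 22.9 CPM in DMSO and 42.2 CPM in MANIO). For 4 endothelial markers they were 1.05 to 1.31 and 0.396 to 0.570 CPM, and for 5 leukocyte markers 0.191 to 0.734 and 1.72 to 2.03 CPM, mostly ITGAM (mean 0.460 and 1.80 CPM). The part of these shifts in the results below was not tested, and in such bulk RNA fewer cells expressing a gene and less RNA per cell cannot be told apart.

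The WNT target genes did not move as a group. DKK1 and SP5 rose in MANIO, AXIN2 and NOTUM fell slightly, and NKD1, RNF43, ZNRF3 and TCF7 did not pass the test. LGR5 and LEF1 had almost no counts in either group and were not tested. A gene was called where its adjusted p in edgeR's quasi-likelihood test was under 0.05, with adjustment over all 15712 tested genes. Of the 8 members that passed the filter on low counts, 4 were called, beside 54.6% of all tested genes. The 2 called higher stand beside a background of 27.8%, and the 2 called lower beside one of 26.8%, so that the shares were close to those of genes at large. Groups did not overlap for 4 of the 8, against 48.3% of tested genes. Over these 8 the median log2 fold change, MANIO over DMSO, was -0.0036, and over all tested genes it was 0.0043.

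**Figure D1:**
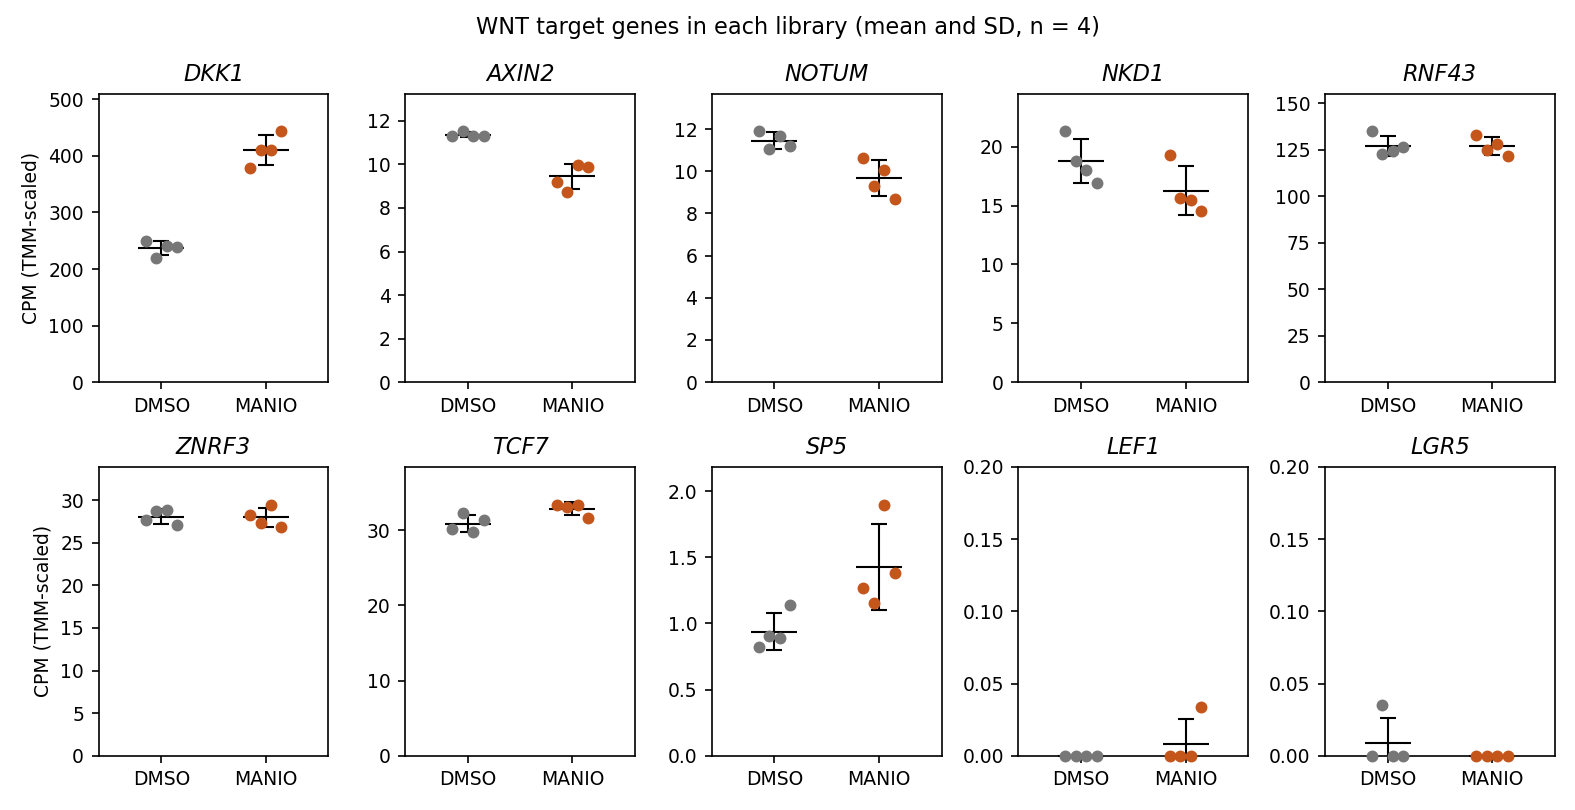
TMM-scaled CPM (y axis, from 0 in each panel) of the 10 WNT target genes in 4 DMSO (grey) and 4 MANIO (orange) libraries. Points are libraries, placed from replicate 1 at the left to replicate 4 at the right, and bars give the mean and SD. The MANIO points lie above all DMSO points for DKK1 and SP5 and below them for AXIN2 and NOTUM, while LEF1 and LGR5 lie at or near 0.

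Among the genes for feedback inhibitors, DKK1 moved most. It encodes Dickkopf-1, a secreted protein that keeps WNT from engaging its LRP co-receptors, and it has also been described as a p53-responsive gene. DKK1 (ENSG00000107984) lies on chromosome 10 at 52314296 to 52318042 on GRCh38. Its level in DMSO replicates 1 to 4 was 249, 220, 241 and 239 CPM. In MANIO replicates 1 to 4 the level was 379, 410, 411 and 444 CPM. Every MANIO library was thus well above every DMSO library, and the spread within groups was small beside the gap between them. The means were 237 ± 12.1 and 411 ± 26.3 CPM (SD, n = 4 each), a 1.73-fold rise. The log2 fold change was 0.79 (SE 0.0590, 95% interval 0.67 to 0.92) with an adjusted p of 4.2e-08 by edgeR. Across the transcriptome 1099 tested genes (6.99%) had a larger log2 fold change. CDKN1A, the p21 gene and a standard p53 target, rose 5.38-fold in the same libraries. The part of the p53 response in the rise of DKK1 was not tested.

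AXIN2, the gene of a scaffold of the destruction complex and a widely used readout of β-catenin activity, fell. It lies on chromosome 17 at 65528563 to 65561647 (ENSG00000168646), and 25.2% of its exonic bases overlap another gene. DMSO replicates 1 to 4 had 11.3, 11.5, 11.3 and 11.3 CPM. In the MANIO replicates AXIN2 stood at 9.19, 8.75, 9.97 and 9.89 CPM. The 4 DMSO libraries were nearly equal, and all MANIO libraries lay below them. The mean went from 11.4 ± 0.110 to 9.45 ± 0.584 CPM (SD, n = 4 each), a log2 fold change of -0.27 (SE 0.0735, 95% interval -0.42 to -0.11, edgeR adjusted p = 0.00629). The DMSO spread, 0.969% of the mean, was smaller than the 5.53% that counting alone gives at this depth. A change this size was common: 48.9% of tested genes had a larger absolute log2 fold change.

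NOTUM encodes a secreted enzyme that removes the lipid WNT proteins need for signalling, and its transcript fell by a like amount. The gene (ENSG00000185269) lies on chromosome 17 at 81952507 to 81961840. NOTUM stood at 11.9, 11.04, 11.7 and 11.2 CPM in DMSO replicates 1 to 4, and at 10.6, 9.30, 10.1 and 8.68 CPM in the MANIO replicates. The groups did not overlap, but MANIO replicate 1 came close to DMSO replicate 2. The log2 fold change was -0.24 (SE 0.0799, 95% interval -0.41 to -0.07, edgeR adjusted p = 0.0172). Without MANIO replicate 2 the log2 fold change was -0.22 (edgeR adjusted p = 0.0521) and without MANIO replicate 4 it was -0.20 (edgeR adjusted p = 0.0507), so the size was about the same while the call was narrowly lost.

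NKD1, the gene of Naked cuticle homolog 1, which binds Dishevelled and restrains the pathway, lies on chromosome 16 at 50548330 to 50649249 (ENSG00000140807). Its DMSO values in replicates 1 to 4 were 21.3, 18.8, 18.04 and 16.9 CPM. Its MANIO values were 19.3, 15.6, 15.5 and 14.6 CPM. The groups overlapped, with replicate 1 the highest library in each. The log2 fold change of -0.20 (SE 0.0934, 95% interval -0.40 to -0.01) did not pass, with an adjusted p of 0.0760 by edgeR and an unadjusted p of 0.0446. It did pass with no filter on low counts (-0.22, edgeR adjusted p = 0.0213), without DMSO replicate 4 (log2 fold change -0.26, edgeR adjusted p = 0.0440) and without MANIO replicate 1 (-0.30, edgeR adjusted p = 0.00998).

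RNF43 and ZNRF3 encode related membrane ubiquitin ligases that remove Frizzled receptors from the cell surface. RNF43 (ENSG00000108375, chromosome 17 at 58352500 to 58417595) had 135, 123, 124 and 127 CPM in DMSO replicates 1 to 4. In MANIO it had 133, 125, 128 and 122 CPM. The ranges of the groups nearly coincide. The log2 fold change of RNF43 was -0.0021 (SE 0.0520), and its 95% interval of -0.11 to 0.11 leaves room for changes of about that size in either direction. In the annotation 73.9% of the exonic bases of RNF43 overlap other genes, among them SUPT4H1 and TSPOAP1-AS1, so its count is uncertain.

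ZNRF3 (ENSG00000183579) lies on chromosome 22 at 28883592 to 29057487 and shares no exonic bases with another gene. It had 27.7, 28.7, 28.9 and 27.1 CPM in DMSO replicates 1 to 4. The MANIO replicates had 28.3, 27.4, 29.5 and 26.8 CPM. Here too the groups overlap throughout, with a log2 fold change of -0.0051 (SE 0.0580, 95% interval -0.13 to 0.12). The adjusted p from edgeR was 0.976 for RNF43 and 0.948 for ZNRF3.

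Of the transcription factor genes, SP5 rose. It encodes a zinc finger protein that acts on WNT target promoters, and it lies on chromosome 2 at 170715351 to 170718078 (ENSG00000204335). SP5 was the least expressed of the tested members, with 22, 26, 28 and 32 raw counts in DMSO replicates 1 to 4 and 40, 38, 60 and 41 in the MANIO replicates. In CPM this is 0.818, 0.908, 0.891 and 1.14 in DMSO and 1.27, 1.16, 1.90 and 1.38 in MANIO. The groups did not overlap, though by a narrow margin, and MANIO replicate 3 was the highest. The mean went from 0.939 ± 0.138 to 1.43 ± 0.328 CPM (SD, n = 4 each), a 1.52-fold rise. The log2 fold change was 0.60 (SE 0.198, 95% interval 0.18 to 1.02) with an adjusted p of 0.0179 by edgeR. Without MANIO replicate 3 it was 0.43 with an adjusted p of 0.0763 by edgeR, and with DESeq2 the adjusted p was 0.0592, so the call rests on 1 library and on the test.

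TCF7, the gene of the β-catenin partner TCF1, lies on chromosome 5 at 134114711 to 134151865 (ENSG00000081059). It had 30.1, 32.2, 29.7 and 31.3 CPM in DMSO replicates 1 to 4. The values in the MANIO replicates were 33.4, 33.1, 33.3 and 31.6 CPM. Of the MANIO libraries, 3 lay above every DMSO library and replicate 4 did not. The log2 fold change was 0.09 (SE 0.0560, 95% interval -0.03 to 0.21), with an adjusted p of 0.187 by edgeR.

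LEF1, whose product is another β-catenin partner, and LGR5, the R-spondin receptor that marks intestinal stem cells, were hardly counted. LEF1 (ENSG00000138795, chromosome 4 at 108047545 to 108168956) had 1 count in all, in MANIO replicate 4, and 0 in the other 7 libraries. LGR5 (ENSG00000139292, chromosome 12 at 71439770 to 71586310) had 1 count in DMSO replicate 2 and 0 elsewhere. A count of 0 allows up to 3 counts, or 0.0915 to 0.112 CPM in these libraries, so both groups are at or under that floor and no fold is given. Such limits cover counting error only. ASCL2, another stem cell target, also had 1 count in all.

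**Figure D2:**
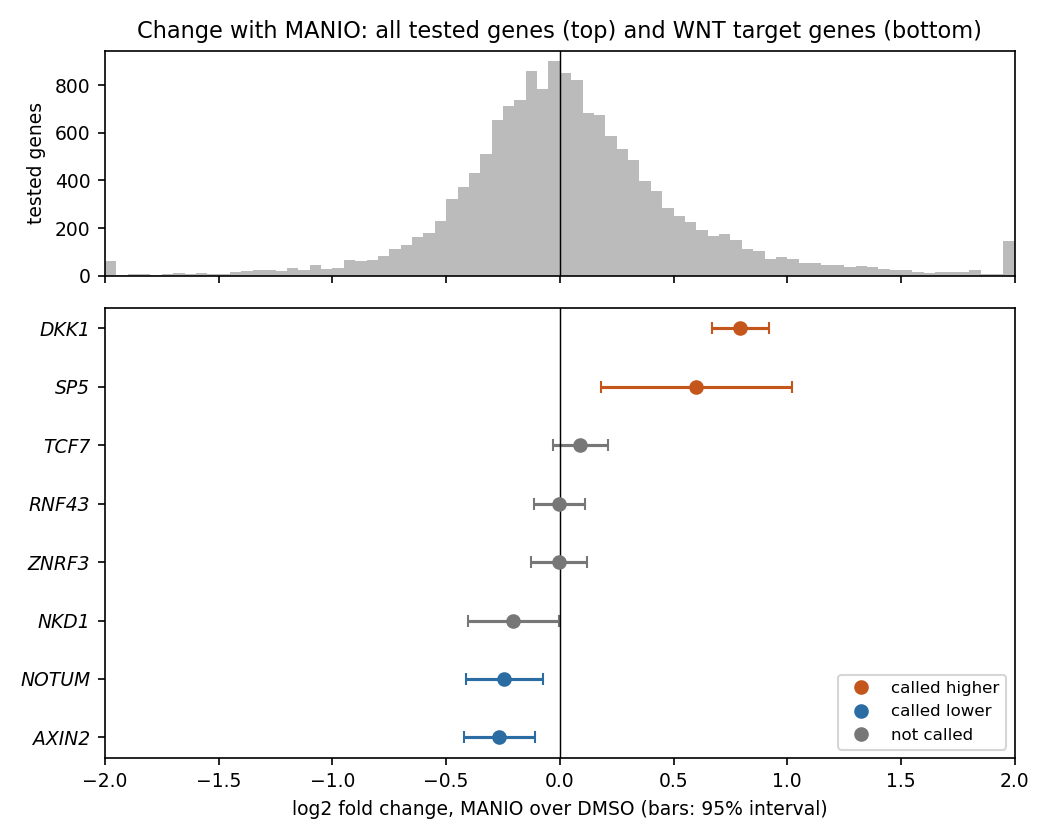
Log2 fold change, MANIO over DMSO (x axis), of all 15712 tested genes as a histogram (top, number of genes on the y axis, values beyond 2 in either direction placed in the outermost bars) and of the 8 tested WNT target genes (bottom, points with 95% intervals). DKK1 at 0.79 and SP5 at 0.60 lie to the right of 0, AXIN2 at -0.27 and NOTUM at -0.24 to the left, and the intervals of TCF7, RNF43 and ZNRF3 include 0.

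Levels of different genes were compared as RPKM, CPM per kb of merged exons in GENCODE 29. DKK1 had the highest level in DMSO, 108 ± 5.49 RPKM (SD, n = 4), followed by RNF43 at 16.9 ± 0.722 RPKM. ZNRF3 came next at 4.03 ± 0.124 RPKM, and its libraries overlapped in range with those of NOTUM at 3.79 ± 0.134 RPKM. TCF7 followed at 3.07 ± 0.114, AXIN2 at 2.17 ± 0.0211, NKD1 at 1.08 ± 0.108 and SP5 at 0.456 ± 0.0668 RPKM, each with a library range below that of the gene before it. In MANIO DKK1 stood at 186 ± 11.9 RPKM. NOTUM and TCF7 then overlapped, at 3.20 ± 0.281 and 3.26 ± 0.0842 RPKM, as did SP5 at 0.692 ± 0.159 RPKM and NKD1 at 0.933 ± 0.121 RPKM. The merged exons of all isoforms measure 17.4 kb for NKD1 and 2.21 kb for DKK1, and a gene that uses only part of them has a lower RPKM. Exonic overlap with other genes, 73.9% of bases in RNF43, 25.2% in AXIN2 and 9.61% in DKK1, makes these levels and their order less certain. The overlap was smaller in the other tested members.

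The rest of the pathway was read from 7 lists with 117 genes. Of the 87 that passed the filter, 33 were called higher and 24 lower, together 65.5% beside 54.6% of all tested genes, and their median log2 fold change was 0.06. Of 13 tested ligand genes among 23 listed, 6 rose and 1, WNT16, fell (-0.16, named after its value was seen), beside 27.8% of all tested genes higher and 26.8% lower. WNT9A had 5.39, 5.90, 5.92 and 7.35 CPM in DMSO replicates 1 to 4 and 18.6, 22.6, 18.3 and 16.1 CPM in MANIO, a 3.08-fold rise (edgeR adjusted p = 2.4e-08). WNT7A rose 2.81-fold, from 1.84 ± 0.164 to 5.18 ± 0.371 CPM, and WNT7B rose 1.49-fold, from 17.9 ± 1.33 to 26.6 ± 2.02 CPM (SD, n = 4 each). RSPO4, one of the R-spondins that amplify WNT signals, went from 0.611 ± 0.240 to 1.37 ± 0.0831 CPM, which is 1.18 on the log2 scale (edgeR adjusted p = 5.2e-04). Over the tested ligands the median was 0.29. PORCN, the acyltransferase gene that ligand export requires, rose 1.62-fold, while the gene of the ligand carrier WLS fell by 0.26 on the log2 scale.

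Of 13 tested receptor genes among 17 listed, 7 fell and 2 rose, beside 26.8% of all tested genes lower and 27.8% higher, and the median was -0.27 on the log2 scale. ROR1, a receptor for non-canonical ligands, had 4.58, 4.65, 3.63 and 4.30 CPM in DMSO replicates 1 to 4 and 1.62, 1.80, 1.77 and 1.48 CPM in MANIO (log2 fold change -1.36, edgeR adjusted p = 4.8e-07). Its relative ROR2 fell by 0.46 on the log2 scale. FZD4 fell from 15.6 ± 0.860 to 9.23 ± 0.728 CPM (-0.76) and FZD7 from 19.0 ± 0.913 to 14.3 ± 0.572 CPM (-0.41). The genes called higher, FZD5 (0.15) and FZD6 (0.21), were named after their values were seen. LGR4, a relative of LGR5, was counted at 14.3 ± 1.79 CPM in DMSO and 13.6 ± 1.88 CPM in MANIO and did not pass.

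Of 13 further inhibitor genes, 9 did not pass the filter and 6 of those, SFRP1, SFRP2, SFRP5, WIF1, DKK2 and SOST, had 0 counts in every library. Among the 4 tested, the genes of the Dickkopf co-receptors went opposite ways. KREMEN2 rose from 16.9 ± 2.43 to 29.3 ± 5.23 CPM (log2 fold change 0.79, edgeR adjusted p = 4.1e-04) and KREMEN1 fell from 58.8 ± 0.909 to 50.3 ± 3.09 CPM (-0.22, edgeR adjusted p = 0.00360). The KREMEN1 call was lost when tested against a limit of 1.2-fold (adjusted p = 0.831 by edgeR's glmTreat). TRABD2A, the gene of a protease that acts on WNT proteins, rose by 0.36, a call lost in 5 of 15 alternative settings. DKK3 and DKK4, relatives of DKK1, were under the filter.

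In the destruction complex and its control, 6 of 17 tested genes rose, 2 fell and 9 did not pass, so that 47.1% were called beside 54.6% of all tested genes. APC itself went from 59.8 ± 4.85 to 57.1 ± 3.04 CPM (log2 fold change -0.07, edgeR adjusted p = 0.417). NKD2, the paralogue of NKD1, had 9.75, 11.5, 12.7 and 12.3 CPM in DMSO replicates 1 to 4 and 19.1, 21.1, 23.6 and 17.2 CPM in MANIO, a 1.75-fold rise, so that NKD2 was called higher while NKD1 was not called. AMER1, which tethers the complex at the membrane, rose 1.42-fold and the Dishevelled gene DVL3 1.34-fold. BTRC, the ubiquitin ligase adaptor that recognises phosphorylated β-catenin, fell by 0.26 on the log2 scale.

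CTNNB1, the β-catenin gene, had 515, 482, 454 and 428 CPM in DMSO replicates 1 to 4 and 486, 488, 435 and 454 CPM in MANIO. The groups overlapped, with a log2 fold change of -0.01 (SE 0.0637, edgeR adjusted p = 0.882). Of 17 tested genes of the nuclear complex, 6 rose, 5 fell and 6 did not pass, or 64.7% called beside 54.6% of all tested genes. TCF7L2, the gene of the TCF factor TCF4, had 188, 174, 181 and 201 CPM in DMSO replicates 1 to 4 and 131, 132, 135 and 133 CPM in MANIO. All MANIO libraries lay below all DMSO libraries, and the log2 fold change was -0.49 (SE 0.0534, edgeR adjusted p = 2.4e-06). The coactivator genes PYGO2 (-0.40) and BCL9 (-0.27) fell as well, whereas BCL9L rose (0.45). In BCL9L 38.8% of the exonic bases overlap other genes.

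**Figure D3:**
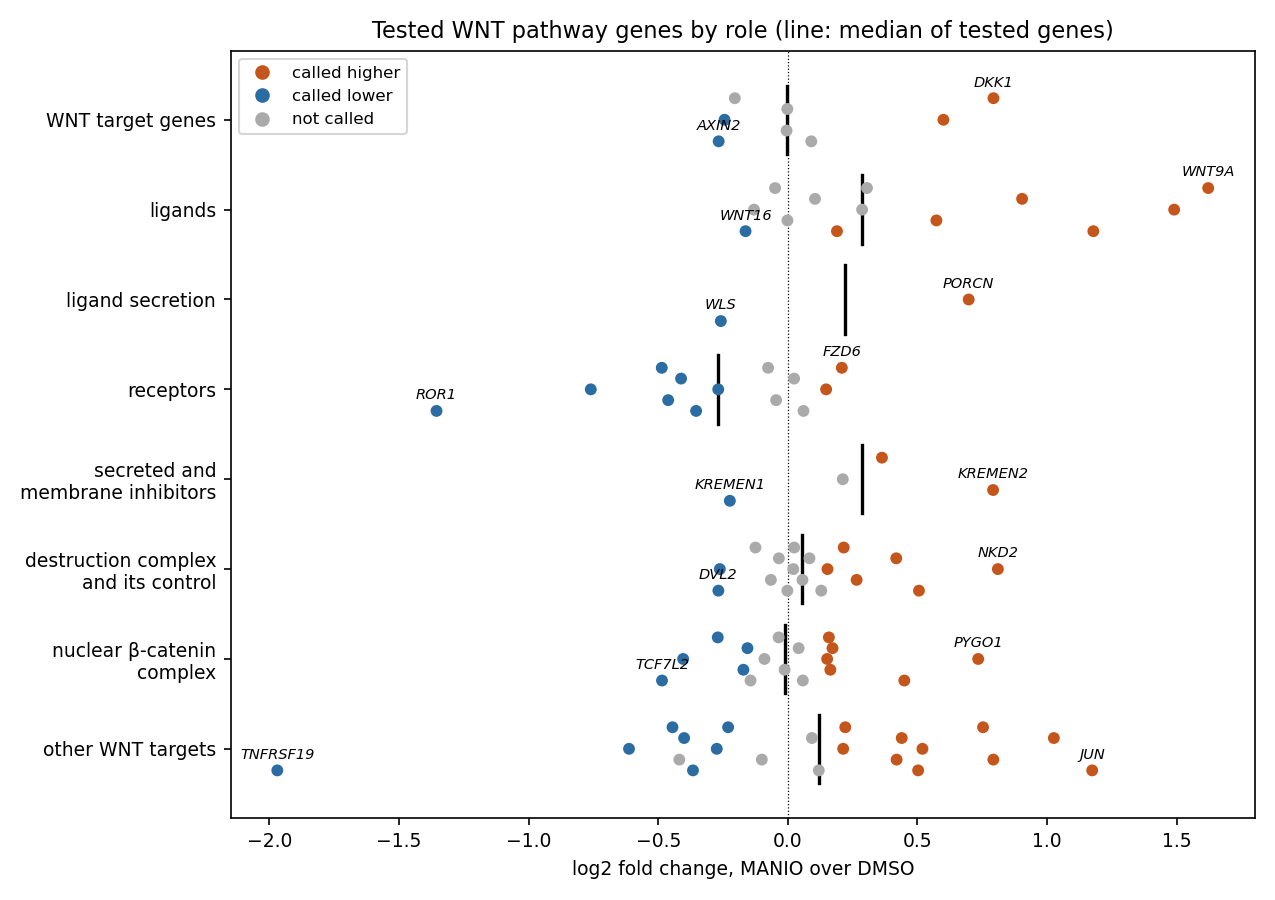
Log2 fold change, MANIO over DMSO (x axis), of each tested gene of the WNT target genes and of the 7 other lists (rows). Orange points were called higher, blue lower and grey not called, the black line is the median of the tested genes of a list, and the lowest and highest gene of each list are labelled. Ligand genes reach 1.62 (WNT9A) and receptor genes -1.36 (ROR1), while the WNT target genes run from -0.27 (AXIN2) to 0.79 (DKK1).

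Of 21 tested genes among 27 other WNT targets, 10 rose, 7 fell and 4 did not pass (81.0% called beside 54.6% of all tested genes), and the median was 0.12 on the log2 scale. CCND1, the cyclin D1 gene, had 469, 529, 522 and 523 CPM in DMSO replicates 1 to 4 and 855, 896, 868 and 826 CPM in MANIO, a 1.69-fold rise (edgeR adjusted p = 3.9e-08). MYC had 264, 291, 305 and 301 CPM in DMSO and 384, 378, 413 and 378 CPM in MANIO (1.34-fold, edgeR adjusted p = 2.2e-05). JUN rose 2.26-fold and the adhesion gene L1CAM 1.73-fold, while TIAM1, an activator of RAC, fell by 0.40 on the log2 scale. These genes answer to many other signals besides β-catenin. Named after their values were seen, the Eph receptor genes EPHB2 (-0.45) and EPHB3 (0.52) went opposite ways, and TNFRSF19 had the lowest value of the list (-1.97), with 0.793 ± 0.0469 CPM in DMSO and 0.199 ± 0.0468 CPM in MANIO. TNFRSF19 passed the filter through its DMSO libraries alone.

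The calls of the members differed in how they held when the processing was changed. DKK1 was called in each of 15 alternative settings, with a log2 fold change of 0.76 to 0.83. AXIN2 was called in 14 of 15, between -0.29 and -0.23, and lost its call only when a change was tested against a limit of 1.2-fold (adjusted p = 0.504 by edgeR's glmTreat). NOTUM and SP5 were each called in 12 of 15, and NKD1, not called in the reported fit, was called in 4. RNF43, ZNRF3 and TCF7 were called in 0 of the 15.

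**Figure D4:**
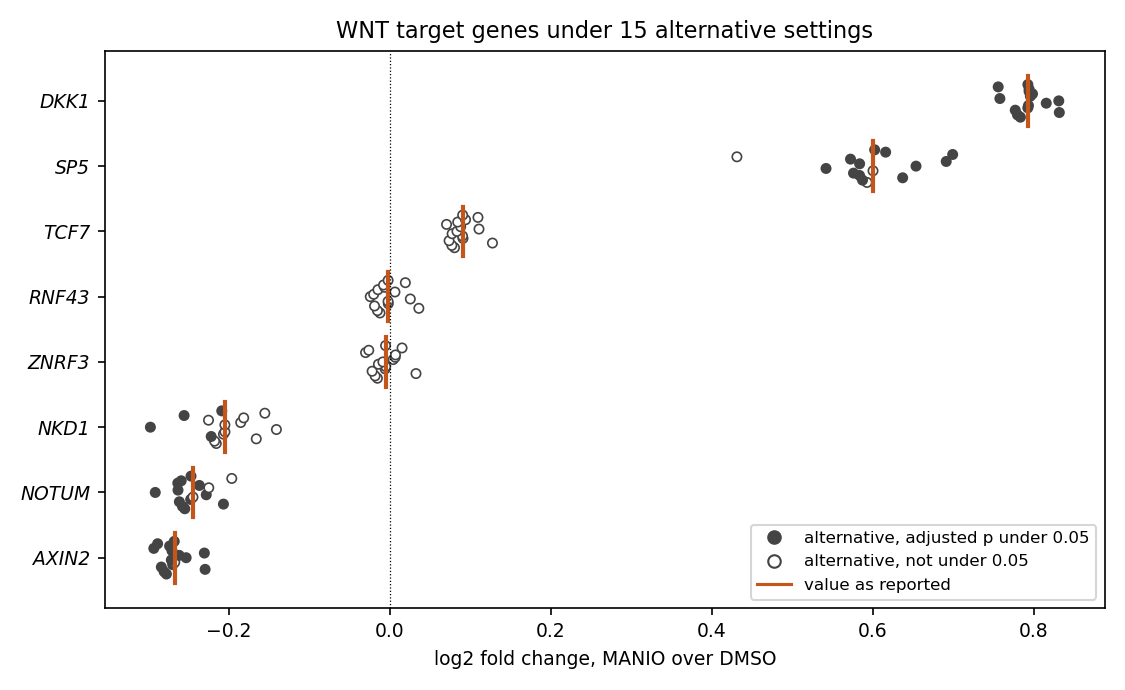
Log2 fold change, MANIO over DMSO (x axis), of the 8 tested WNT target genes (rows) under 15 alternative settings. Circles are alternatives, filled where the adjusted p was under 0.05, and the orange line is the value as reported. DKK1 stays between 0.76 and 0.83 with every circle filled, SP5 ranges from 0.43 to 0.70 with 3 open circles, and RNF43 and ZNRF3 lie on both sides of 0 with open circles only.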

How the data were processed

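RNA was sequenced in 4 DMSO and 4 MANIO samples of HCT116 p53+/+ cells, with libraries made with the TruSeq RNA kit, version 2, per the labels' protocols. The authors deposited raw read counts for 58302 genes, as the whole-number values show. FastQC 1.3, STAR 2.5.3a, HTSeq, DESeq2 and the build GRCh38 are named in the submitters' processing notes without their roles. The sources used here do not state the annotation release, the strand setting or the handling of multiply mapped reads. The kit does not mark strand, so overlapping genes cannot be told apart.

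Columns were matched to samples by their labels. Counts were filtered with filterByExpr (15712 genes left), scaled by TMM and tested with the quasi-likelihood test of edgeR 4.0.16 in R 4.3.3, with group alone in the model and Benjamini-Hochberg adjustment over all tested genes. SE came from the F statistic. The alternatives were DESeq2 1.42.0, limma 3.58.1 (voom), other scalings, no filter, a 1.2-fold limit, a replicate block and each library left out. The procedure was tested on simulated data in which most genes were unchanged, unlike the data here, where 54.6% of tested genes were called. As a check for duplicate deposits of a library, chi-square over degrees of freedom between libraries of a group was 3.60 to 24.4, with the 3 largest values in pairs with DMSO replicate 1. Positions and exons came from GENCODE 29, which holds 58039 of the identifiers.

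The members and lists were chosen with earlier results of these data known. Named genes are the 10 members, up to 4 called genes of smallest p from each of 7 pathway lists, CTNNB1, APC, TCF7L2, MYC and CCND1, and p53 targets as a check (here CDKN1A). Genes beyond that rule are marked as named after their values were seen or stand as examples of silent or paralogous genes. Nothing in the sources used here says whether replicates were separate cultures grown on different days, so p-values measure the spread between these samples.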

Additional observations from a re-analysis of the deposited data

Results flagged for a closer look

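A library was picked out where its gap to the nearest of the other 3 libraries of its group took more of the group's range than Dixon's 95% critical value. Of 82 groups of 4 examined, chance alone marks about 1 in 20, and 7 were marked. For AXIN2 it was DMSO replicate 2, at 11.5 CPM against 11.3 CPM in each of the others, a gap of little size because the DMSO values were nearly equal. AMER1 was low in DMSO replicate 4, at 8.88 CPM against 9.83 to 9.86 CPM. DVL3 was high in MANIO replicate 3, at 122 CPM against 107 to 109.6 CPM.

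DMSO replicate 1 was marked for 3 measures. BCL9L had 138 CPM there against 165 to 166 CPM in the other DMSO libraries, CCND1 had 469 CPM against 522 to 529 CPM, and mitochondrially encoded genes took 7.48% of its counts against 4.82% to 5.21%. CDKN1A, the p53 target used as a check, was low in MANIO replicate 4, at 1257 CPM against 1445 to 1462 CPM, and still far above every DMSO library.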

How the results depend on the processing

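The 8 tested members were refitted under 15 alternatives each. Of the 120 values, 100 kept their direction and their side of the threshold, 7 lost the call, 4 gained it and 9 changed sign, all 9 in RNF43 or ZNRF3, which were never called. For the 28 other pathway genes named by the rule, 407 of 420 values kept both, 9 lost the call and 4 changed sign, all 4 in CTNNB1. Of the lost calls, 5 were of TRABD2A, and WLS, KREMEN1, BTRC and BCL9 each lost theirs only against a 1.2-fold limit. Where the cause of a change is not given below, the cause was not tested.

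Members called higher numbered 2 as reported, 1 with DESeq2 and 1 against a 1.2-fold limit, and 1 to 2 with a library left out. Members called lower numbered 2, then 0 against the 1.2-fold limit and 1 to 3 with a library left out. That limit, which by construction asks for a larger change, left 19 other pathway genes higher and 11 lower in place of 33 and 24, and 2302 genes higher and 1830 lower of all tested in place of 4366 and 4208. With a library left out, other pathway genes called higher numbered 27 to 31 and lower 20 to 24, and all genes 3962 to 4389 and 3829 to 4233.

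With library size scaling, RNF43 (0.036), ZNRF3 (0.033) and CTNNB1 (0.026) changed sign. With a library left out, RNF43 ran from -0.024 to 0.026, ZNRF3 from -0.030 to 0.015 and CTNNB1 from -0.058 to 0.033 on the log2 scale, and none of the 3 was called in any setting. Scaling moved the median of all genes by at most 0.04.

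Replicate numbers are shared by the groups in the labels, but the pairs of equal number did not deviate together throughout: their correlations ran from 0.04 to 0.16, 2 of 4 were over 0.1, and 2 of 8 libraries correlated best with their own number. With the replicate block, members called higher numbered 2 and lower 3, NKD1 being added (adjusted p = 0.0142), other pathway genes 34 and 22, and all genes 4491 and 4354. Depth limits SP5, with 22 to 60 counts per library, and leaves LEF1 and LGR5 without a comparison.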
